A study of Mus musculus with 7 samples.

Results

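The miRNA probes mmu-miR-151-3p, mmu-miR-151-5p, mmu-miR-190, mmu-miR-345-3p, mmu-miR-670 and mmu-miR-1839-3p (written below without the species prefix) were taken by name. These 6 of 566 mouse miRNA probes come from 5 hairpin genes. They were chosen by their deposited levels, which were lower in astrocytoma than in neocortex. Their difference between the groups is therefore a description with no test. All 6 were above the detection cutoff in all 7 samples. The panel also holds the other arms of 2 of these hairpins, miR-345-5p and miR-1839-5p, which serve as comparison.

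The 3 normal samples were neocortex, layers II to IV, of adult wild-type CD1 mice aged 60 days. The 4 astrocytomas were from adult CD1 mice transgenic for hGFAP-HaV12-Ras, in which the human promoter of GFAP, a gene of astrocytes and of neural progenitor cells, drives an activated Ras oncogene. The tumors were taken at postnatal days 65, 104, 125 and 134, so all 4 were older than the controls, and age and group cannot be told apart. Neocortex 2 and tumor 2 were female and the others male. The labels do not give the place of a tumor in the brain, and the control is gray matter of upper layers only. The readout was the NanoString nCounter mouse miRNA assay, in which barcoded probes bound to RNA are counted one by one with no amplification step. The number of samples per group limits the precision of every difference below. A p-value here sets a difference against the spread between these samples within the groups.

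A miRNA is cut from a hairpin transcript, first by Drosha in the nucleus and then by Dicer in the cytoplasm, and either arm of the hairpin (5p or 3p) can be loaded into an Argonaute protein. The loaded strand finds its target mRNAs mainly through its seed, bases 2 to 8. Many miRNAs lie inside another gene and are made from that gene's transcript. Mir151 lies within the span of Ptk2, which encodes focal adhesion kinase, and Mir190a within that of Tln2, which encodes talin 2, a protein that ties integrins to actin. In the same gene table (RefSeq, GRCm38.p6) Mir670 lies within a long noncoding RNA gene named for it, Mir670hg, and Mir1839 within the long noncoding RNA gene 2900076A07Rik. Mir345 lies within no other gene of the table. A location inside a gene thus holds for 4 of the 5 hairpin genes, and introns and exons were not told apart.

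The mature sequences with their seeds in capitals show which probes could be read as relatives. The sequences are from RefSeq (GRCm38.p6), and 3 of the 6 miRNAs were matched in the table used here, miR-190, miR-345-3p and miR-670. The panel's miR-190 and miR-670 carry no arm in their names and were taken as the 5p arms.
miR-190 (miR-190a-5p, chr9:67236700-67236721, minus strand): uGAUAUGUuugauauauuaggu
miR-190b (miR-190b-5p, chr3:90070030-90070051, plus strand): uGAUAUGUuugauauuggguug
miR-345-3p (chr12:108837027-108837048, plus strand): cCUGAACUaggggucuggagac
miR-345-5p (chr12:108836989-108837010, plus strand): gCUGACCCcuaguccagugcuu
miR-670 (miR-670-5p, chr2:94261358-94261379, minus strand): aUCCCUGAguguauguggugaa
miR-1839-5p (chr7:81529919-81529940, plus strand): aAGGUAGAuagaacaggucuug
miR-190 shares its seed with miR-190b, and the first 15 of their 22 bases are the same. Among 1679 mature mouse miRNAs of the table, no other entry has the seed of miR-345-3p or of miR-670, and the arms of Mir345 have different seeds. The Mir345 hairpin shows how its arms face each other, here with both mature arms in capitals, the 5p arm first. The longest run of one arm that is complementary to the other has 10 bases.
Mir345 hairpin (chr12:108836973-108837068, plus strand): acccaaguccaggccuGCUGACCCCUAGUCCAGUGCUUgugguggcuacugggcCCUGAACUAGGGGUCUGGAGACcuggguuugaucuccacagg

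Each deposited value is a log2 level, and a probe that stayed below its sample's cutoff is listed at 0. Taken back to the linear scale, the low values of each sample were whole multiples of 1 number, so each value could be turned back into counts. A count was worth 1.79 to 4.63 linear units in neocortex and 0.53 to 0.96 in tumor. Total miRNA counts were 23578 to 60791 in neocortex and 117640 to 208071 in tumor. The cutoff lay at 4.65 to 5.21 on the log2 scale in neocortex and at 3.09 to 3.78 in tumor. NEG_D, 1 of 8 negative-control probes, which have no miRNA target, was at 5.42, 5.73 and 5.80 in neocortex. In the tumors it was at 3.75, 0, 4.17 and 3.48, so on the deposited scale it too was lower in every tumor than in any neocortex sample. In counts NEG_D stood at 24, 18 and 12 in neocortex and at 14, under 13, 21 and 21 in tumor. No other negative control was above the cutoff in neocortex, so NEG_D was the highest of them there. In tumors 1 and 2, 1 other was above the cutoff, and in tumors 3 and 4 none was. The subtractions and comparisons below use NEG_D alone, which may overstate the background in neocortex.

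All 6 miRNAs were lower in tumor on the deposited scale, in all 4 tumors against all 3 neocortex samples. Non-overlap in this direction was found for 19.1% of the 283 miRNAs that passed the filter on mean level and were tested. In limma, 9.54% of the 283 were called lower at a Benjamini-Hochberg adjusted p under 0.05, and all 6 were among them, as their choice requires. With 1 sample left out the count of 6 became 2 without tumor 2 (3.53% of all called lower), 3 without neocortex 3 (4.95%) or tumor 3 (5.65%), 4 without neocortex 2 (8.13%), and 5 without neocortex 1 (14.5%) or tumor 1 (8.13%). It stayed at 6 without tumor 4 (22 of all 283 called lower). Calls of the 6, here and under other settings, use the values by which they were chosen, so they describe and do not test them. The difference was between -1.58 and -1.08 log2, with a median of -1.37, against a median of 0.032 over all 283. The 283 include miRNAs listed at 0 in some samples. Over the 197 miRNAs that, like the 6, were above the cutoff in all 7 samples, the median was -0.29. Set against NEG_D, the 6 differed in how far they stood above it. miR-345-3p, miR-151-5p and miR-670 lay at 2.5 times the NEG_D count or more in every sample with a NEG_D value, whereas miR-151-3p, miR-1839-3p and miR-190 lay at 1.06 to 1.75 times it in neocortex and at 1.33 to 4.09 times it in tumor.

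**Figure D1:**
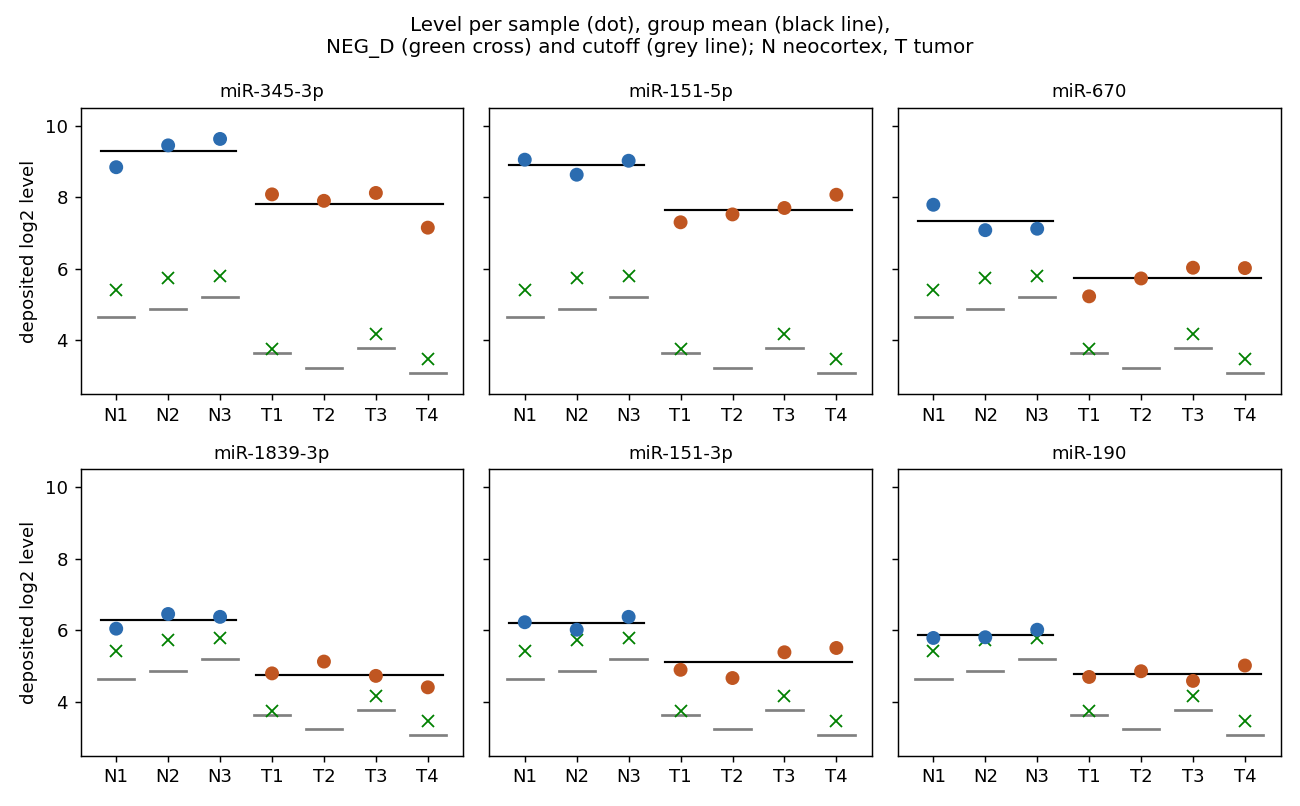
Deposited log2 level (y axis) of the 6 miRNAs in the 3 neocortex samples (N1 to N3, blue) and 4 tumors (T1 to T4, orange), with the group mean as a black line, the NEG_D probe as a green cross and the cutoff of each sample as a grey line. miR-345-3p, miR-151-5p and miR-670 stand clear of NEG_D, and the neocortex values of miR-190, 5.79 to 6.02, lie close to the NEG_D values of 5.42 to 5.80.

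Both arms of Mir151 were on the panel. In human liver cancer miR-151-5p has been described as acting with focal adhesion kinase in cell migration. Its log2 level was 9.05, 8.63 and 9.02 in neocortex and 7.30, 7.52, 7.70 and 8.07 in tumors 1 to 4. The highest tumor, tumor 4, was still 0.56 below the lowest neocortex sample. Group means were 8.90 ± 0.23 (SD, n = 3) and 7.65 ± 0.33 (SD, n = 4), a difference of -1.25 (SE 0.24), or 2.38-fold lower. miR-151-3p stood at 6.23, 6.02 and 6.38 in neocortex and at 4.90, 4.67, 5.39 and 5.51 in the tumors. Tumors 3 and 4 were again the highest of the tumors, and the gap between the groups was 0.51. The means were 6.21 ± 0.18 (SD, n = 3) and 5.12 ± 0.40 (SD, n = 4), a difference of -1.09 (SE 0.26), or 2.13-fold lower. The 3p minus 5p difference averaged -2.69 ± 0.11 log2 (SD, n = 3) over the neocortex samples and -2.53 ± 0.24 (SD, n = 4) over the tumors. That 0.16 difference between the groups was below the spread within the tumors, and the ranges overlapped. It became 0.37 with the highest cutoff of the 7 samples, 5.21, applied to all values, which raised miR-151-3p in tumors 1 and 2. With NEG_D subtracted as well it was 1.17. There miR-151-3p was under that cutoff in every sample and set to it, so 1.17 reflects miR-151-5p alone. Nothing is read from these values about the arms.

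In counts, miR-151-5p and miR-151-3p were not lower in tumor. miR-151-5p had 296, 135 and 112 counts in neocortex and 164, 252, 242 and 507 in the tumors, which is 7.5 to 12.3 and 11.5 to 24.1 times NEG_D where that probe had a value. miR-151-3p had 42, 22 and 18 counts in neocortex against 31, 35, 49 and 86 in the tumors. The exact 95% Poisson interval of its 22 counts in neocortex 2, 13.8 to 33.3, contains the 18 counts of NEG_D there (these intervals cover counting error only). With NEG_D subtracted, miR-151-3p was left with 23.9 ± 10.8 linear units (SD, n = 3) in neocortex and 25.1 ± 7.44 (SD, n = 4) in tumor, or 22.7 ± 8.68 with NEG_D of tumor 2 taken at that sample's cutoff of 13 counts. miR-151-5p kept a log2 ratio of -1.16 after the same subtraction, and -1.17 with that cutoff.

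miR-190 had few counts in neocortex. In mouse hippocampal neurons miR-190 has been described as a repressor of the transcription factor NeuroD1. Its log2 level was 5.79, 5.81 and 6.02 in neocortex and 4.70, 4.86, 4.59 and 5.02 in the tumors. The samples of a group were close to each other and the groups lay 0.77 apart. Means were 5.87 ± 0.13 (SD, n = 3) and 4.79 ± 0.19 (SD, n = 4), a difference of -1.08 (SE 0.18), or 2.12-fold lower. Its counts were 31, 19 and 14 in neocortex, within 7 counts of NEG_D in each of these samples, and 27, 40, 28 and 61 in the tumors. With NEG_D subtracted, 12.5, 2.94 and 9.27 linear units were left in neocortex, and 12.5, 29.1, 6.01 and 21.2 in the tumors (19.7 for tumor 2 with NEG_D at its cutoff). The groups then overlapped and the tumor mean was the higher one, 17.2 ± 10.1 (SD, n = 4) or 14.8 ± 7.01 with that cutoff, against 8.24 ± 4.87 (SD, n = 3).

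miR-190b, which has the same seed as miR-190 (uGAUAUGUuugauauuggguug, shown above), was not among the 6. It stood at 5.48, 6.02 and 6.21 in neocortex and at 4.99, 5.13, 5.33 and 4.92 in the tumors. The groups did not overlap, and the difference of -0.81 (SE 0.23) had an adjusted p of 0.0599 in limma (Benjamini-Hochberg). It was called lower without neocortex 1 (-1.02, limma adjusted p = 0.013), with the highest cutoff of the 7 samples applied to all values (limma adjusted p = 0.0354), and when every sample had to exceed its cutoff (limma adjusted p = 0.0225; all Benjamini-Hochberg). In counts it too was near NEG_D in neocortex, at 25, 22 and 16, against 33 to 57 in the tumors. Cross-detection between the probes of these near-identical sequences was not tested.

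miR-345-3p, read from the 3p arm of Mir345, was at 8.84, 9.45 and 9.63 in neocortex and at 8.08, 7.90, 8.12 and 7.15 in the tumors. Tumor 4, the oldest, was the lowest, and neocortex 1 was the lowest of its group. Means were 9.31 ± 0.41 (SD, n = 3) and 7.81 ± 0.45 (SD, n = 4), a difference of -1.49 (SE 0.33), or 2.82-fold lower. Its counts, 256, 238 and 171 in neocortex and 282, 328, 324 and 268 in the tumors, varied little across the 7 samples, and every tumor was above every neocortex sample. Higher counts in every tumor than in any neocortex sample were found for 84.8% of the 283 tested miRNAs, and among the 6 for miR-345-3p alone. It lay at 10.7 to 20.1 times the NEG_D count, and with NEG_D subtracted the log2 ratio was -1.44, or -1.45 with NEG_D of tumor 2 at its cutoff.

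The other arm did not share this pattern. miR-345-5p was at 4.93 in neocortex 1 and listed at 0 in neocortex 2 and 3, where the cutoffs were 4.88 and 5.21. In the tumors it was at 4.85, 4.93, 4.87 and 4.94. The value of neocortex 1 thus fell among those of the tumors. A value listed at 0 has no known level below the cutoff, so a fold is not stated (limma adjusted p = 0.12, Benjamini-Hochberg, with 0 as listed). Without neocortex 1 the remaining neocortex samples are both at 0, and miR-345-5p was then called higher (limma adjusted p = 2.07e-05, Benjamini-Hochberg). In counts miR-345-5p had 17 in neocortex 1, below the 24 of NEG_D, and 30, 42, 34 and 58 in the tumors. The 3p value exceeded the 5p value by 3.91 in neocortex 1, where the 5p probe was not above NEG_D, and by at least 4.57 and 4.42 in neocortex 2 and 3. In the tumors it did so by 3.23, 2.97, 3.25 and 2.21. Since miR-345-3p was chosen for being lower in tumor and the 5p probe had no level above NEG_D in neocortex, nothing is read from the separation of the groups here.

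miR-670 showed the largest difference of the 6 on the deposited scale. It was at 7.79, 7.08 and 7.12 in neocortex and at 5.23, 5.73, 6.03 and 6.02 in the tumors. Tumor 1, the youngest, was the lowest and neocortex 1 the highest of all samples, and the groups were 1.05 apart. Means were 7.33 ± 0.40 (SD, n = 3) and 5.75 ± 0.38 (SD, n = 4), a difference of -1.58 (SE 0.29), or 2.99-fold lower. In counts it had 124, 46 and 30 in neocortex and 39, 73, 76 and 122 in the tumors, and these ranges overlapped fully. NEG_D subtraction left a log2 ratio of -1.37, or -1.45 with NEG_D of tumor 2 at its cutoff.

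miR-1839-3p lay near NEG_D. The hairpin is shown with the 5p arm in capitals, as the 3p probe is read from the other side of it.
Mir1839 hairpin (chr7:81529916-81529988, plus strand): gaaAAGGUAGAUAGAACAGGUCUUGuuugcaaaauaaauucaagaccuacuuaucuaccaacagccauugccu
The log2 level of miR-1839-3p was 6.05, 6.46 and 6.38 in neocortex and 4.80, 5.13, 4.73 and 4.41 in the tumors. Tumor 2 was the highest tumor and tumor 4 the lowest, and the groups lay 0.92 apart. Means were 6.30 ± 0.22 (SD, n = 3) and 4.77 ± 0.30 (SD, n = 4), a difference of -1.53 (SE 0.23), or 2.89-fold lower. Its counts were 37, 30 and 18 in neocortex, 1.5 to 1.67 times NEG_D, and 29, 48, 31 and 40 in the tumors. With NEG_D subtracted, 28.8 ± 6.10 linear units (SD, n = 3) were left in neocortex and 17.0 ± 12.2 (SD, n = 4) in tumor, with tumor 2, at 34.9, inside the neocortex range. Taking NEG_D of tumor 2 at its cutoff gave 25.5 units for that tumor and a tumor mean of 14.6 ± 7.64 (SD, n = 4).

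miR-1839-5p was lower in tumor by less. It was at 6.99, 6.51 and 7.30 in neocortex and at 6.43, 6.10, 6.38 and 6.31 in the tumors. The groups were separated by 0.08 only. The difference of -0.63 (SE 0.23) did not pass the test (limma adjusted p = 0.12, Benjamini-Hochberg), with an interval of -1.19 to -0.071 before adjustment. It passed without neocortex 2 (-0.84, limma adjusted p = 0.039, Benjamini-Hochberg), and with NEG_D subtracted and the highest cutoff of the 7 samples applied to all values the difference was -0.005 (SE 0.32). The 3p minus 5p difference was -0.94, -0.05 and -0.92 in neocortex and -1.63, -0.97, -1.65 and -1.90 in the tumors. The nearest tumor and neocortex sample were 0.03 apart, and neocortex 2 stood apart from the other neocortex samples. As with Mir345, the 3p value in this difference was chosen for being lower in tumor, so its direction is a description only.

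**Figure D2:**
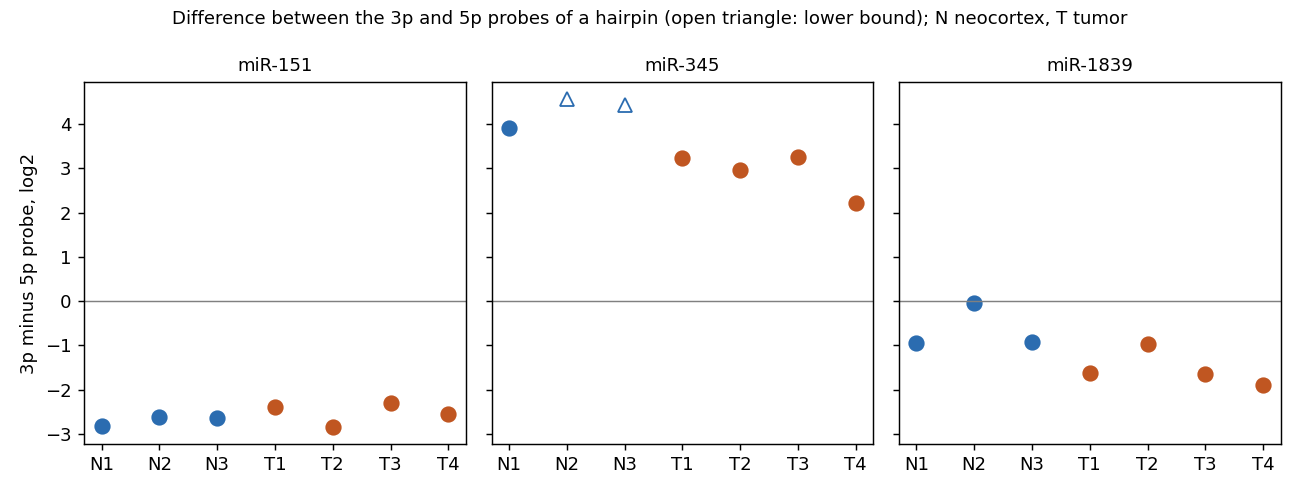
Difference between the 3p and the 5p probe of 1 hairpin (y axis, log2) in the 3 neocortex samples (N, blue) and the 4 tumors (T, orange), with open triangles for lower bounds where the 5p probe was listed at 0. The miR-151 values overlap between groups (-2.82 to -2.61 and -2.85 to -2.31), and the miR-345-5p probe was not above NEG_D in N1, where the difference is 3.91; the 3p values were chosen for being lower in tumor, and levels of different probes are not compared.

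Directions were relative to the scaling of the samples. Scaled on the positive-control probes, which are added in fixed amounts, the 6 lay between 0.14 and 0.63 above 0, and without scaling, in counts, between 0.37 and 0.87. None of the 6 was called in either direction there, where 81.3% and 87.3% of the 283 tested miRNAs were called higher and 0.0% lower in limma (0 lower also at an unadjusted p under 0.05, for the 6 and for all). Scaled on the housekeeping mRNA probes they lay between -2.54 and -2.04, where 48.1% were called lower. The median of all tested miRNAs moved with the scaling, from 0.032 as deposited to 1.77 on the positive controls, 2.01 without scaling and -0.95 on the housekeeping probes. These settings shift all values above 0 of a sample alike and leave values listed at 0 in place. The 6 had no value at 0, so their place below that median was fixed by their choice. On the quantile scale 3 of the 6 were called, with 8.13% of all tested called lower, and the 3 not called were miR-151-3p, miR-151-5p and miR-190.

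**Figure D3:**
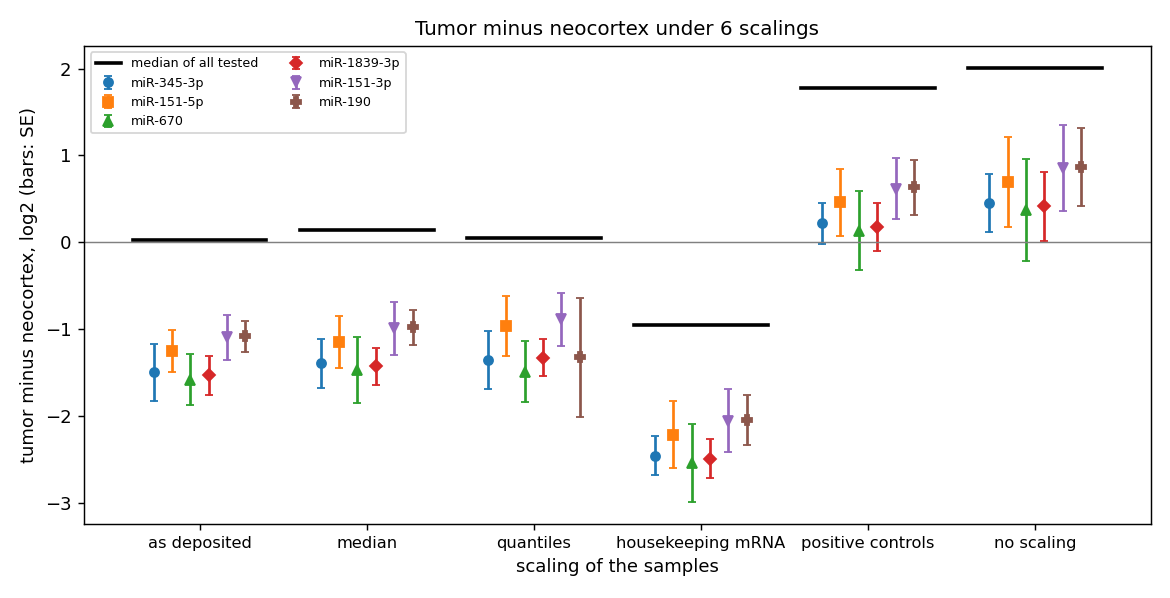
Tumor minus neocortex (y axis, log2, with SE bars) of the 6 miRNAs under 6 scalings of the samples, with the median of all 283 tested miRNAs as a black line. The 6 lie below 0 as deposited (-1.58 to -1.08) and above it on the positive controls (0.14 to 0.63) and without scaling (0.37 to 0.87), while the line moves from 0.032 to 1.77 and 2.01; their place below the line was fixed by their choice.

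The handling of background also divided the 6. With NEG_D subtracted and every value raised to the highest cutoff of the 7 samples, 5.21, only miR-151-5p, miR-345-3p and miR-670 were above that cutoff in at least 3 samples, with differences of -1.17, -1.45 and -1.18. miR-151-3p, miR-190 and miR-1839-3p were too low to test under that setting. Centred on its own mean over the 6 samples with a NEG_D value, NEG_D lay nearest to miR-1839-3p, with a root mean square difference of 0.18 log2, then to miR-345-3p with 0.28, and lay 0.49 to 0.56 from the other 4. Of the 36 probes on the panel for viral, plant and worm miRNAs, 1, 1 and 2 were above the cutoff in neocortex, none above 5.38, and 10 to 18 in the tumors, the highest at 4.42 to 4.85. In tumor 1 miR-190 and in tumors 1 and 4 miR-1839-3p lay below the highest of these probes. The part of background in the lower values was not tested beyond these subtractions.

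**Figure D4:**
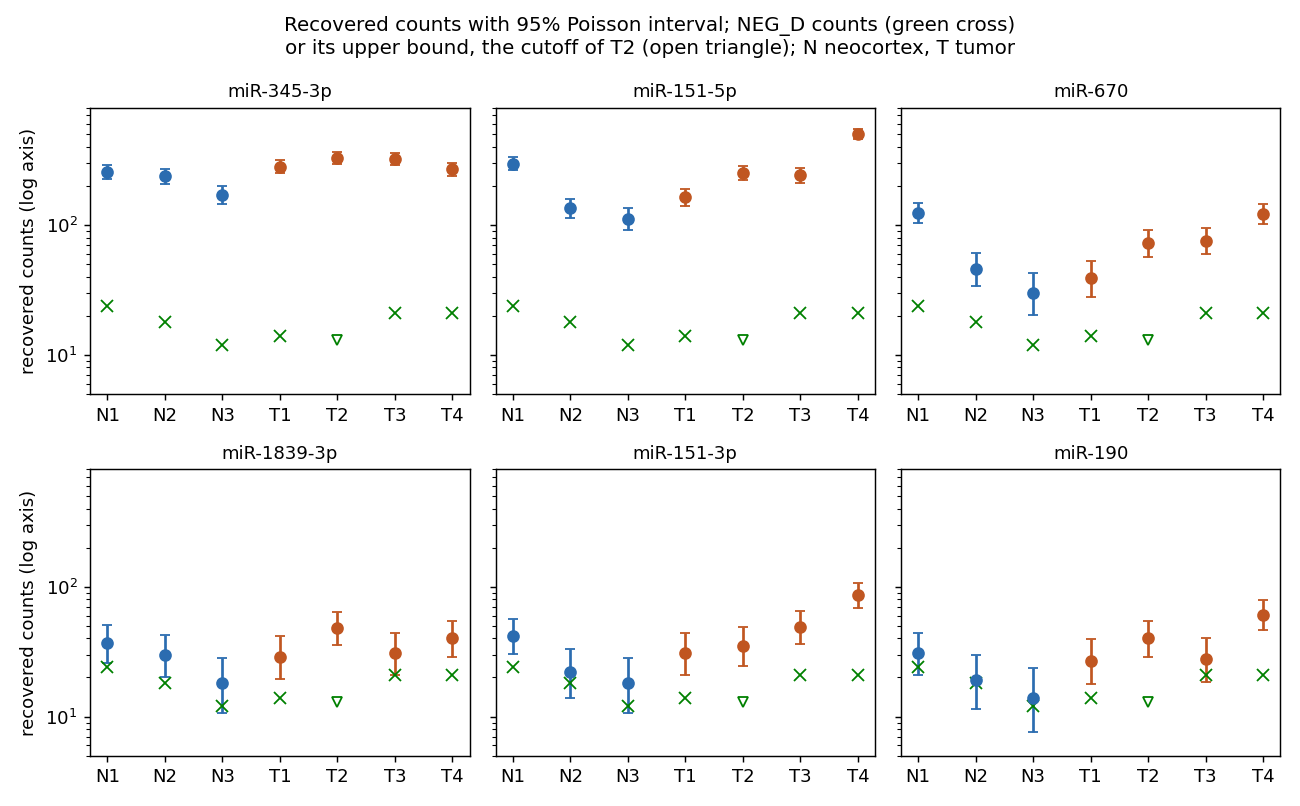
Recovered counts (y axis, log axis) of the 6 miRNAs with exact 95% Poisson intervals in neocortex (N, blue) and tumor (T, orange), with NEG_D counts as green crosses and the 13-count cutoff of T2 as an open triangle, since NEG_D was under it there. The neocortex intervals of miR-190 contain the NEG_D counts of 24, 18 and 12, and those of miR-345-3p lie far above them.

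The 6 did not share 1 profile across samples. The closest pair was that of the Mir151 arms, whose mean-centred log2 values differed by a root mean square of 0.19 over the 7 samples. miR-151-5p and miR-190 followed at 0.23, and miR-345-3p and miR-1839-3p at 0.25. The most distant pair was miR-345-3p and miR-670 at 0.63. miR-151-5p and miR-670 were highest among the tumors in tumors 3 and 4, whereas miR-345-3p and miR-1839-3p were lowest in tumor 4.

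Among the other tested miRNAs, those nearest in profile were found by the same measure. miR-23b was nearest to miR-151-5p (0.14) and to miR-670 (0.27). miR-678 was nearest to miR-151-3p (0.16), with miR-23b next (0.18), and was also next for miR-151-5p (0.22). miR-297c was nearest to miR-345-3p (0.17), followed by miR-338-5p (0.25), the minor arm of an oligodendrocyte miRNA hairpin. miR-181c (0.16) and miR-210 (0.18) were nearest to miR-190, and the shared probe of miR-181b and miR-181d was next for miR-670 (0.33). miR-291b-3p (0.08) and miR-1907 (0.17) were nearest to miR-1839-3p. These distances describe 7 samples that fall into 2 groups, so any miRNA lower in tumor by a like amount is near.

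Other miRNAs encoded inside a gene were divided between the directions. On the panel, 91 tested miRNAs other than the 6 lie within a protein-coding gene for which the tables give the same strand. Of these, 6 were lower, 4 higher and 81 not called in limma (6.59% lower and 4.40% higher, against 9.54% and 8.13% of all 283). Some of the 91 were listed at 0 in neocortex samples, where the cutoff was higher than in tumor. The differences of these, above 0 for all but miR-1967, are no measured folds. With these included, the median difference of the 91 was 0.008, with 45 below 0, against 0.032 over all tested. Among those called lower, the 3 largest falls were miR-338-3p (host Aatk) at -2.08 (SE 0.33, limma adjusted p = 0.00976), miR-338-5p (Aatk) at -1.39 (SE 0.30, limma adjusted p = 0.0281) and miR-23b (Aopep) at -1.31 (SE 0.22, limma adjusted p = 0.012; all Benjamini-Hochberg). miR-338-5p was not called without neocortex 2, neocortex 3, tumor 2 or tumor 4 (limma adjusted p = 0.0587 to 0.0772, Benjamini-Hochberg). Among those called higher, the 3 largest fitted rises were those of miR-2137 (Zfp185), miR-21 (Vmp1) and miR-1902 (Hipk3). miR-2137 was listed at 0 in all neocortex samples and ranged from 3.71 to 6.76 among the tumors. The neocortex cutoffs were 4.65 to 5.21, so its lowest tumor value would have been listed at 0 there, and no fold is stated. miR-21 was higher by 2.76 (SE 0.28, limma adjusted p = 0.0018, Benjamini-Hochberg), and miR-1902 by 1.19 (SE 0.19, limma adjusted p = 0.00976, Benjamini-Hochberg). By the mean log2 value over all 7 samples, which pools both groups, the highest tested values of the list were those of miR-21, miR-338-3p and let-7g (Wdr82), the last of which differed by -0.10 (SE 0.16, limma adjusted p = 0.626, Benjamini-Hochberg). Ptk2 and Tln2 have no strand in these tables, and no host gene was measured on this panel.

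The relatives miR-28 and miR-708 share the seed AGGAGCU with each other and not with miR-190, miR-345-3p or miR-670. The miR-151 arms and miR-1839-3p had no sequence here to compare. In neocortex miR-28 and miR-708 were at or under the NEG_D level. miR-28 was listed at 0 in neocortex 1 and 2, at 5.21 with 8 counts in neocortex 3, while the tumors had 4.97 to 5.33 (limma adjusted p = 0.12, Benjamini-Hochberg, with 0 as listed). Its tumor counts, 42, 43, 40 and 71, were 1.9 to 3.38 times NEG_D where that probe had a value. Without neocortex 3, which leaves neocortex at 0, it was called higher (limma adjusted p = 0.000117, Benjamini-Hochberg). miR-708 was at 5.46 in neocortex 2, at 0 in neocortex 1, neocortex 3 and tumor 3, and at 4.09 to 4.75 in the other tumors, too low to test.

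Markers of cell types moved with the groups as well. The linear levels of the miRNAs of a cell type were summed and the sum is given in log2, so the most abundant miRNA weighs most. The 3 oligodendrocyte miRNAs summed to 12.5 to 12.9 in neocortex and 9.97 to 11.2 in tumor, and all 3 fell in limma, where 9.54% of all tested were called lower. The 2 endothelial ones summed to 9.47 to 9.88 and 10.3 to 11.2, with none called. The 4 neuron and brain miRNAs summed to 13.4 to 13.9 in neocortex and 13.8 to 14.0 in tumor, and 1 of them, miR-9, was called higher (8.13% of all tested were). The list did not move as 1: miR-128 differed by -0.75 (SE 0.31) and was not called (limma adjusted p = 0.154, Benjamini-Hochberg). The 4 of microglia and white blood cells summed to 8.13 to 8.59 and 8.26 to 9.39, with miR-142-3p called higher and miR-142-5p at 0 in all samples. The 2 red blood cell miRNAs summed to 7.86 to 8.36 and 8.50 to 9.34, with none called. The 2 mural ones summed to 8.94 to 9.32 and 8.46 to 9.75, again with none called. Epithelial and liver or muscle miRNAs, 4 each, summed to 6.38 and 6.42 at most, with none called. The part of cell makeup in the lower values was not tested, and in bulk tissue fewer cells of a type and less RNA per cell cannot be told apart.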

How the data were processed

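Values were taken from the authors' deposited table of log2 values, with 1 column per sample and 2 decimals. Per the labels, total RNA was isolated with a miRNA kit and measured on version 1.3 of the nCounter mouse miRNA panel. Their normalization and software are unknown: not given in the sources used here. Counts were recovered as the largest unit of which the low values (151 to 264 per sample, up to 60 counts) were whole multiples, within 0.02 counts beyond what rounding to 2 decimals allows. All (100%) were whole. No count model was run, since the files hold log2 levels.

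Tumor was compared with neocortex in limma 3.58.1 (R 4.3.3; lmFit, eBayes, 2-sided) on the deposited log2 values without a pseudocount, over the 283 of 566 miRNA probes whose mean reached the median of that mean, with Benjamini-Hochberg adjustment at 0.05. The fit and the count recovery were tested on simulated data. The 6 miRNAs, the lists and the rules were chosen with earlier results of these data known. Named besides the 6 were other arms, seed relatives, the 2 nearest profiles per miRNA, and, of miRNAs inside genes, the 3 most abundant and the 3 largest calls each way. Of the 566 probes, 525 matched a gene of the GRCm38.p6 table. Strands came from its promoter and miRNA tables, so hosts with no strand there were left out. Alternatives were scalings, background, cutoffs, filters, a pseudocount of 10, sex, a trend and robust fit, a replicate block and each sample left out. NEG_D subtraction without a cutoff was added after the data were seen.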

Additional observations from a re-analysis of the deposited data

Results flagged for a closer look

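The tumor values of 25 miRNAs named in the text were searched for a sample far from the others, and 3 were marked; among so many groups of 4, chance marks about 1 in 20. None of them is 1 of the 6 miRNAs. In miR-708, tumor 3 was listed at 0 against 4.09 to 4.75 in the other tumors, and its gap to the nearest took 0.861 of the range. In miR-1907, tumor 2 stood at 4.24 above the others, with a share of 0.925. In miR-21, tumor 2 stood at 11.40 below the others, with a share of 0.95.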

How the results depend on the processing

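Leaving out any 1 sample kept all 6 miRNAs lower in tumor, which was fixed beforehand, as their groups did not overlap and they were chosen for it. The count of miRNAs called lower in limma was 27 as deposited and 10 to 41 with 1 sample left out (41 without neocortex 1, 14 without neocortex 3, 10 without tumor 2, 16 without tumor 3); that called higher was 23, and 13 to 32 (13 without tumor 2 or 3, 15 without tumor 4). miR-1839-5p then ranged from -0.84 to -0.45. For miR-345-5p the fitted value, which takes 0 as listed and is no measured fold, ranged from 2.43 to 4.90 and was called only without neocortex 1 (limma adjusted p = 2.07e-05, Benjamini-Hochberg). Lower and higher counts were 0 and 230 on the positive controls (0 and 234 at an unadjusted p under 0.05), 136 and 8 on the housekeeping probes, 0 and 247 without scaling (0 and 252 unadjusted), 10 and 37 after NEG_D subtraction with all values raised to 5.21, 41 lower when every sample had to exceed its cutoff, 67 higher with no filter, and 15 higher with sex as a covariate. With a replicate block there were 0 lower and 5 higher (31 and 28 at an unadjusted p under 0.05, among them all 6), and none of the 6 was called; with tumor 4 in a block of its own that fit drops tumor 4. Samples of the same number deviated together at r of -0.18, 0.25 and 0.13 across 197 miRNAs, and those of other numbers at -0.39 to 0.43. So few values cannot decide whether the numbers pair the samples.

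On the positive controls and without scaling, respectively, the following turned to higher in tumor: miR-151-3p at 0.62 and 0.86, miR-151-5p at 0.46 and 0.70, miR-190 at 0.63 and 0.87, miR-345-3p at 0.22 and 0.46, miR-670 at 0.14 and 0.37, miR-1839-3p at 0.18 and 0.42, miR-1839-5p at 1.08 and 1.32, miR-190b at 0.90 and 1.14, let-7g at 1.61 and 1.85, miR-181b with miR-181d at 0.44 and 0.68, miR-181c at 0.79 and 1.02, miR-1907 at 0.30 and 0.54, miR-210 at 0.89 and 1.13, miR-23b at 0.40 and 0.64, miR-291b-3p at 0.15 and 0.39, miR-297c at 0.28 and 0.52, miR-338-5p at 0.32 and 0.55, and miR-678 at 0.60 and 0.84. These scalings shift all values above 0 by their own construction. The fitted value of miR-345-5p there was 4.19 and 3.95, with 0 as listed, and it was called higher. On the housekeeping probes miR-1839-5p fell by 1.59. NEG_D subtraction without a cutoff turned miR-190 to 1.06, or 0.85 with NEG_D of tumor 2 at its cutoff, and miR-151-3p to 0.068, or -0.075. Depth limits the low values: NEG_D, miR-151-3p, miR-190 and miR-1839-3p had 12 to 42 counts in neocortex.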
